A study of Mus musculus with 6 samples.

Results

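The control transcriptome of AtT-20 cells was described from 3 arrays. AtT-20 is an established mouse pituitary tumour line of the corticotroph type, the cell that makes adrenocorticotropic hormone. The members were the arrays labelled as non-targeting controls, 3 of the 6 arrays in the series, and within them the 34945 of 45101 probe sets that carry 1 gene symbol, which stand for 18193 genes. The cells of every control array had been treated repeatedly with 20 nM non-targeting siRNA, named siNT in the labels, for 8 days, so they are transfected controls and not untreated cells. The other 3 arrays, from cells given siRNA against Dnmt1, were not used. The labels describe 3 independent rounds of treatment, and control arrays 1, 2 and 3 come from rounds 1, 2 and 3. The labels name no passage, culture density or medium beyond recommended conditions. Total RNA was biotin-labelled and hybridised to 1 array per sample.

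A corticotroph makes pro-opiomelanocortin, encoded by Pomc, and cuts this prohormone into adrenocorticotropic hormone inside dense-core granules. Corticotropin-releasing hormone from the hypothalamus acts on the receptor Crhr1, raises cyclic AMP and drives both Pomc transcription and granule release, whereas glucocorticoids acting through Nr3c1 and somatostatin acting through Sstr receptors restrain the cell. The factors Tbx19, Neurod1 and Pitx1 act together at the Pomc promoter, and Tbx19 is restricted to the Pomc-producing cells of the pituitary. AtT-20 cells are widely used to study granule sorting and the cutting of prohormones by the convertase Pcsk1.

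The promoter sequences of 4 corticotroph genes and of 2 hormone genes of other pituitary cells are shown first, because the classes of signal described below differed in promoter composition. Each sequence holds the 250 bases before the annotated start in RefSeq, build GRCm38.p6, read 5' to 3' along the gene, with every CpG dinucleotide in capitals. The Pomc stretch is at chr12:3954695-3954944 on the + strand, Chga at chr12:102554691-102554940 on the + strand, Pcsk1 at chr13:75089607-75089856 on the + strand, Tbx19 at chr1:165160774-165161023 on the - strand, Prl at chr13:27057320-27057569 on the + strand and Cga at chr4:34893529-34893778 on the + strand.
Pomc: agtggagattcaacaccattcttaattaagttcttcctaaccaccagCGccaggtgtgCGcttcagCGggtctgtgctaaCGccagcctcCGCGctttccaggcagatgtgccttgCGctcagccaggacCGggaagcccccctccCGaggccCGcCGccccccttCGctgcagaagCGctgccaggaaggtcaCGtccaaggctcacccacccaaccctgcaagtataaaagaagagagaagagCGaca
Chga: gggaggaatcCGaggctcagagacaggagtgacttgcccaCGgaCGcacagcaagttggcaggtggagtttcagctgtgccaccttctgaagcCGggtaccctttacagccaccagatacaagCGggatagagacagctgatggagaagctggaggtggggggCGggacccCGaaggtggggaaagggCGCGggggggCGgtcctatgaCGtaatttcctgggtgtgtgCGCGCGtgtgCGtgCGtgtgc
Pcsk1: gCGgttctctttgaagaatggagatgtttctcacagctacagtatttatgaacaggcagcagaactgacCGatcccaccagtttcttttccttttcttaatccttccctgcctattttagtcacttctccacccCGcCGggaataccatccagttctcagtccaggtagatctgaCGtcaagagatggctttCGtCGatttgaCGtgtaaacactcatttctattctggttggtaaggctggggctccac
Tbx19: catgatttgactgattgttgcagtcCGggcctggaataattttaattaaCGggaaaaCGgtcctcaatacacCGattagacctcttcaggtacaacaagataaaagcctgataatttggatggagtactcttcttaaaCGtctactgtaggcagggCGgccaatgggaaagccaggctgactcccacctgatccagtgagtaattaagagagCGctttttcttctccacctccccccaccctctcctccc
Prl: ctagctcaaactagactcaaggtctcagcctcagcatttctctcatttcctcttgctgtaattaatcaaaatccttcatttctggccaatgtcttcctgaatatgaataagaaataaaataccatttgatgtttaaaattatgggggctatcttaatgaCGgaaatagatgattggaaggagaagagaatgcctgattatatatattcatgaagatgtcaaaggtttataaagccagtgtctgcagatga
Cga: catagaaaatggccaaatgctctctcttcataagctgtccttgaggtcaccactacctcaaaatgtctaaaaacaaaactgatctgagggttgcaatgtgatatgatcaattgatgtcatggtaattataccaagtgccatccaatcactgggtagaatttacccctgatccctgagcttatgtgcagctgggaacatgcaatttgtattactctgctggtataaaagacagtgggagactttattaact
The printed Pomc stretch holds 15 CpG dinucleotides and the Chga stretch 16. Pcsk1 has 8 and Tbx19 has 7, while the prolactin gene Prl has 1 and the glycoprotein hormone alpha subunit gene Cga has 0. The letters TATAAA begin 25 bases before the start of Pomc and 30 before that of Cga. Pcsk1 holds the 8 letters TGACGTCA, the full cyclic AMP response element, beginning 78 bases before its start.

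Each array was divided by its own median, so a level of 1 is the median probe set of that array and all levels below are multiples of it. A level is the signal of 1 probe set, which depends on its probes as well as on the transcript, so a rank describes position on the array and not transcript abundance. A gene with several probe sets is represented by its brightest. Olfactory, vomeronasal, taste and trace amine receptors, which sensory cells express, served as the reference for signal near background. They numbered 78 genes with 87 probe sets, and the 95th percentile of those probe sets on each array was taken as the upper edge of a band. The edges were at 1.66, 1.71 and 2.07 on arrays 1, 2 and 3. A gene was called above the band when it passed the edge on all 3 arrays, inside when it passed on none, and mixed otherwise. Probe sets of bacterial control transcripts assumed not to have been added to the samples, 27 in all, lay below the edge on every array. Their highest level was 1.07, and the assumption was not checked.

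The deposited signals were not on a common scale, with medians of 19.8, 33.2 and 24.0. Array 2 also had the highest ratio of 2% trimmed mean to median, 4.20 against 3.52 and 3.86 on arrays 1 and 3. Its brightest probe sets were relatively low: among the 100 genes of highest mean level, array 2 was the lowest for 94%, by a median log2 difference of -0.28 from the mean of the others, whereas with the genes above the band cut into 10 equal groups by level it exceeded them by a median of 0.20 or more in 7 of the 10. The hybridisation controls, which are added to each sample, had a median level of 32.4, 17.9 and 29.9, also lowest on array 2, and their part in this was not tested. The 3'/5' signal ratios were 1.40, 1.23 and 1.40 for actin and 0.777, 0.858 and 0.788 for Gapdh. Gene levels correlated between arrays with Spearman's rho of 0.949 to 0.957 across 18115 genes, as a description, and no arrays held identical values.

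Of the 18115 genes outside the receptor reference, 8502 were above the band on all 3 arrays, which is 46.9%. A further 7562 genes, 41.7%, stayed inside it on all 3, and 2051 were mixed. Of the receptor genes themselves 3 of 78, or 3.85%, were above, and they were Olfr15, Olfr1508 and Vmn2r29, the last at 2.65. Genes just past the edge were Alpi, Trappc8 and Slc41a2, and Ccdc33, Socs1 and Zfp595 fell just short. The share above was 34.8% for genes with 1 probe set and 59.2% for genes with 2 or more. Where genes had several probe sets these often fell in different classes: of 9003 such genes, 1586 had all above, 2468 had all inside and 3089, or 34.3%, had at least 1 above and 1 inside. A gene inside the band is therefore not shown to be silent.

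**Figure D1:**
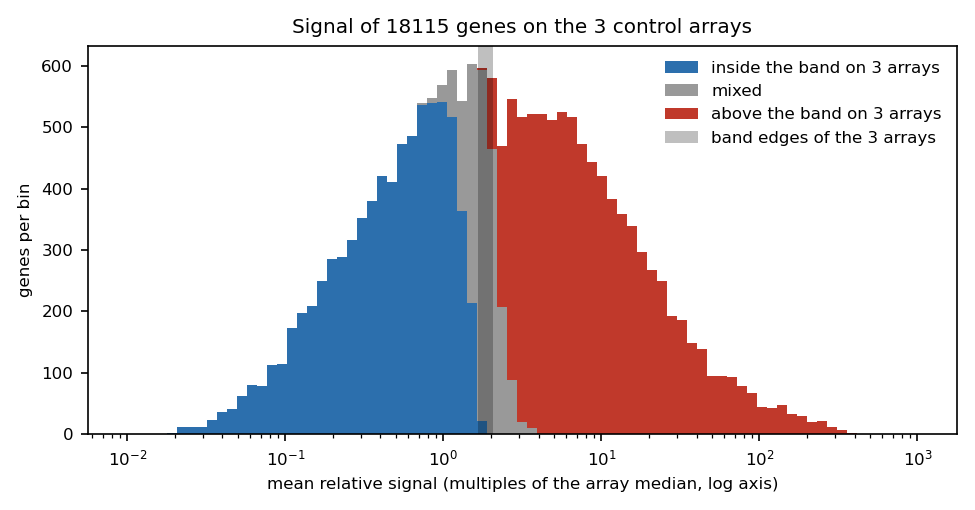
Number of genes (vertical axis) by mean relative signal over the 3 control arrays, in multiples of the array median on a log axis, coloured by class. The shaded strip spans the band edges of the 3 arrays, from 1.66 to 2.07, and the 8502 genes above the band form a long right tail that reaches 383.

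Pomc stood almost at the top of the array. Its brightest probe set read 416 on array 1, 274 on array 2 and 402 on array 3, which placed it at ranks 2, 6 and 1 of 18115 genes. The mean was 364 ± 77.8 (SD, n = 3), rank 2 by mean level, and the other Pomc probe set read 381, 218 and 330. Array 2 was the low one, as it was for most of the brightest genes. Chga, encoding the granule protein chromogranin A, read 261, 222 and 282 and had rank 30.

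The other corticotroph markers were also above the band on every array. Of the 6 genes that define the label 6 were above, against 46.9% of all genes. These genes were picked as markers of the cell type, so their count does not test the label. Tbx19 read 54.2, 64.1 and 59.6 (mean 59.3 ± 4.94, SD, n = 3, rank 530), and its dimmer probe set was above the band as well. Pcsk1, the convertase that cuts pro-opiomelanocortin, read 35.4, 31.0 and 56.3, with array 3 highest and a mean of 40.9 ± 13.5 (SD, n = 3). Neurod1, a basic helix-loop-helix factor, read 9.58, 12.6 and 8.11 on the brighter of its probe sets. Pitx1, a homeodomain factor of the anterior pituitary, read 6.45, 6.97 and 6.76 (mean 6.73 ± 0.262, SD, n = 3), while its second probe set, at 2.23, 1.98 and 1.91, crossed the band edge. The 3 factors thus lay between the 73.8th and the 97.1st percentile of genes by signal.

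**Figure D2:**
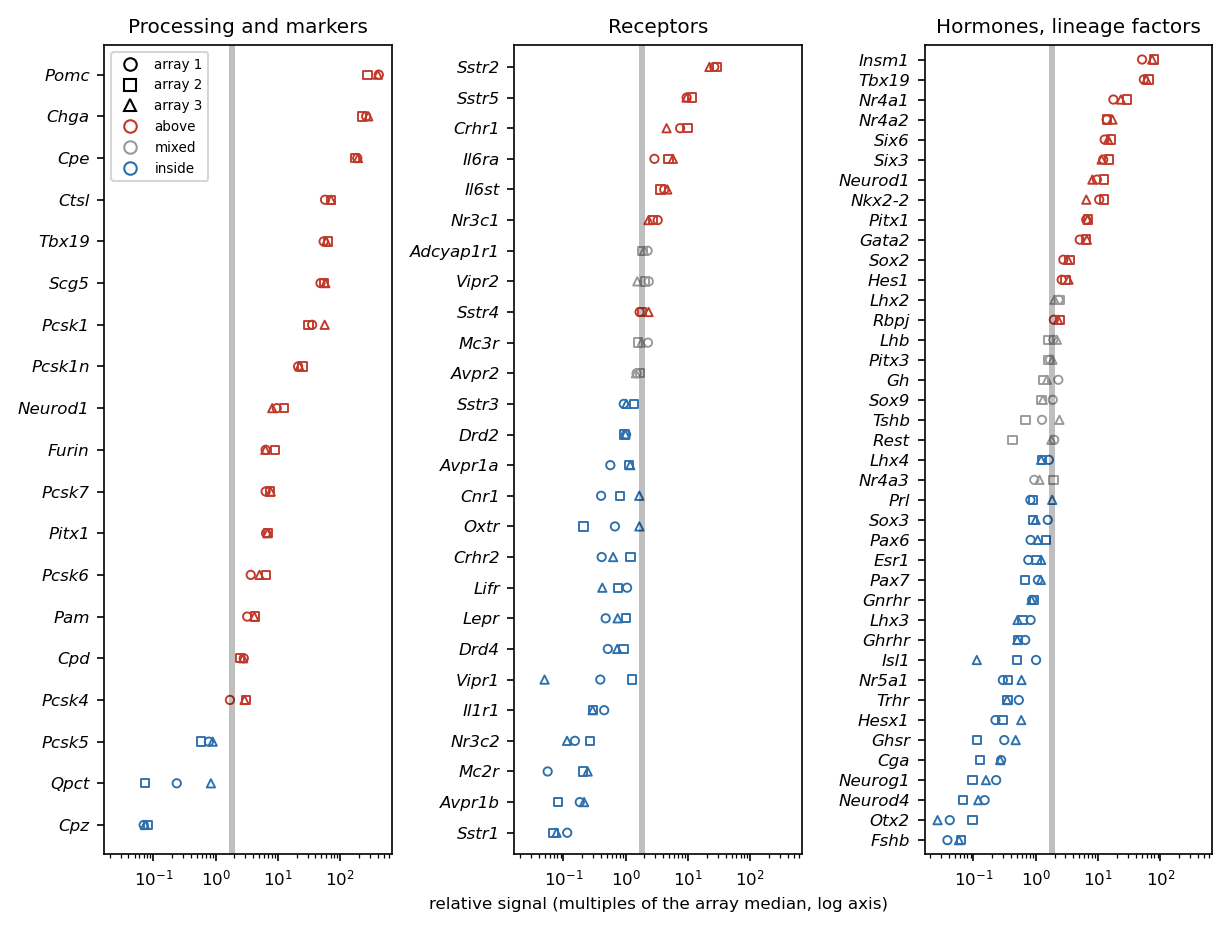
Relative signal of each gene on control arrays 1 (circle), 2 (square) and 3 (triangle), in multiples of the array median on a log axis, for prohormone processing genes with the markers, receptors, and other hormones with lineage factors, coloured by class. The strip marks the band edges, and Pomc, Chga and Cpe lie far to its right while Cga and Fshb lie to its left, as does Prl on arrays 1 and 2 but not on array 3.

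Of 15 measured genes of the path from prohormone to peptide, Pomc included, 12 were above the band. That is 80%, against 46.9% of all genes. Cpe, the carboxypeptidase that trims basic residues, read 188, 172 and 193 (mean 184 ± 10.9, SD, n = 3) and had rank 79. Its second probe set was also above the band but far lower, at 2.16, 3.34 and 3.83. Ctsl, a cysteine protease also found in granules, read 57.0, 71.2 and 71.0, with 1 of 2 probe sets above. Scg5, which encodes the chaperone 7B2 of the convertase PC2, read 48.2, 55.4 and 57.7. Pcsk1n, encoding an inhibitor of Pcsk1, read 21.1, 24.8 and 22.2. The broadly expressed convertase genes had means of 7.24 for Furin, 7.14 for Pcsk7 and 5.03 for Pcsk6. Pam, which amidates peptides, had a mean of 3.88 ± 0.582 (SD, n = 3), Cpd 2.83, 2.49 and 2.77 with 1 of 7 probe sets above, and Pcsk4 2.57. Pcsk5, the glutaminyl cyclase gene Qpct and Cpz stayed inside, at 0.753, 0.384 and 0.0752. Pcsk2, the convertase that Scg5 serves, was not matched to a probe set with a single symbol and is not analysed here.

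Granule cargo and granule membrane genes were above the band for 13 of 27, or 48.1%, close to the 46.9% of all genes. Of those 13, 12 were granins, granule membrane proteins, proton pump accessory subunits or the acyl-CoA binding peptide Dbi. These kinds were assigned with the values known, and the members inside the band were not counted by kind. Chgb, encoding chromogranin B, read 148, 156 and 206. Vgf and Scg2 had means of 40.3 ± 7.24 and 38.9 ± 5.42 (SD, n = 3), Scg3 23.8, and the granule tyrosine phosphatase genes Ptprn2 and Ptprn 31.2 and 27.3. Most other neuropeptide genes were inside the band: the enkephalin gene Penk was at 0.256, the somatostatin gene Sst at 0.386, Cartpt at 0.236 and Crh at 0.231. Npy, the neuropeptide Y gene, was the exception among peptide genes, at 3.16, 3.32 and 3.21. Of the vesicular monoamine transporter genes, which also encode granule membrane proteins, Slc18a1 was mixed at a mean of 1.68 and Slc18a2 inside at 0.126.

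The machinery of regulated exocytosis was above for 31 of 40 genes, or 77.5%, against 46.9% of all genes. Rab3a, a GTPase of secretory vesicles, read 69.7, 76.2 and 75.6. The calcium sensor gene Syt7 read 54.2, 73.9 and 63.9, with all 4 probe sets above the band. Snap25, a SNARE gene, had a mean of 26.4 ± 3.34 (SD, n = 3). Its partner Stx1a was mixed, at a mean of 1.42, and Snap23 and Cadps2 were inside.

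Receptors for the hormones that govern the corticotroph were above the band for 7 of 26 genes, or 26.9% against 46.9% of all genes, and for 11 with the edge at the 90th percentile. Sstr2 read 26.4, 29.0 and 22.1 and Sstr5 9.52, 11.5 and 9.47, and both subtypes are known from corticotrophs. Sstr4 passed narrowly, at 1.67, 1.85 and 2.33, while Sstr3 and Sstr1 were inside. Crhr1 read 7.48, 9.86 and 4.53, lowest on array 3, and its second probe set was flatter at 7.44, 7.01 and 5.94. The interleukin-6 receptor chains Il6ra and Il6st had means of 4.49 ± 1.45 and 4.15 ± 0.506 (SD, n = 3). They had 1 of 2 and 2 of 4 probe sets above the band. The leukaemia inhibitory factor receptor Lifr, whose ligand also acts on corticotrophs, was inside at 0.743.

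The glucocorticoid receptor gene Nr3c1 rested on a single probe set. That probe set read 3.27, 2.77 and 2.33, and the other 5 of its 6 probe sets were inside the band. The vasopressin receptor Avpr1b, which mediates the second hypothalamic signal to pituitary corticotrophs, was inside at 0.183, 0.0820 and 0.215. The dopamine receptor Drd2 was inside at a mean of 0.986, as were the mineralocorticoid receptor Nr3c2 at 0.178 and the corticotropin receptor Mc2r at 0.170. Each of the genes Avpr1b, Drd2, Nr3c2 and Mc2r has 1 probe set here.

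Downstream of these receptors the cyclic AMP pathway was above the band for 21 of 34 genes, or 61.8%, against 46.9% of all genes. Gnas, encoding the stimulatory G protein alpha subunit, read 233, 177 and 230, with 3 of 5 probe sets above. Prkar1a, a regulatory subunit of protein kinase A, read 167, 149 and 177. The catalytic subunit gene Prkaca was at 27.3 and the adenylyl cyclase gene Adcy9 at 19.7, while Adcy7 and Adcy8 were inside. Ion channels were above for 14 of 38, or 36.8%, and for 6 when the median over the probe sets of a gene replaced its brightest. Kcnk1, a leak potassium channel gene, read 65.1, 79.0 and 63.4, and Kcnj11, the pore subunit of the ATP-sensitive potassium channel, had a mean of 13.5. The L-type calcium channel genes Cacna1c and Cacna1d were at 3.44 and 3.05.

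No hormone gene of another pituitary cell type was above the band, at 0 of 11 hormones and hypothalamic hormone receptors against 46.9% of all genes. The gonadotropin and thyrotropin subunit genes Fshb and Cga read 0.0535 and 0.224 on average, and Prl read 0.821, 0.905 and 1.83. Lhb, Gh and Tshb were mixed. Lhb read 1.91, 1.60 and 2.18, below the edge on array 2 only, so it counted as above when array 2 was left out, the 1 of 11 to do so. Gh read 2.30, 1.33 and 1.51, above on array 1 only, and Tshb passed on array 3 only, at 2.40.

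Of the pituitary lineage factors 13 of 29 were above, or 44.8%, near the 46.9% of all genes, and they did not all belong to the corticotroph. Insm1, a zinc finger factor of endocrine cells, read 50.8, 78.4 and 73.9. Nr4a1, the orphan receptor that mediates the response of Pomc to corticotropin-releasing hormone, read 17.6, 28.9 and 23.2, and Nr4a2 had a mean of 14.9. The homeodomain genes Six6 and Six3 were at 14.4 and 12.8, and Nkx2-2, known from endocrine pancreas and neural tube, at 9.76 ± 3.01 (SD, n = 3). Six3 had 1 of 3 probe sets above the band. Gata2, a factor of gonadotrophs and thyrotrophs, read 5.08, 6.47 and 6.61. Sox2, a progenitor factor, was at 3.17, and the Notch pathway genes Hes1 and Rbpj at 2.99 and 2.23.

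The other listed lineage factors were inside the band, 11 genes, or mixed, 5 genes. Lhx3, Isl1, Hesx1 and Otx2 were inside at 0.649, 0.541, 0.368 and 0.0550, and so were Nr5a1, the gonadotroph factor, at 0.416 and Pax7, the factor of melanotrophs, at 0.986. Neurod4 was inside at 0.113. Rest, the repressor of neuronal genes, was mixed at 1.98, 0.423 and 1.78. Lhx2 was mixed because array 3, at 2.00, fell short of its edge of 2.07.

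Markers of neuronal and epithelial cells were above the band about as often as the 46.9% of all genes, and the shares for the other cell types listed ran from 0% to 28.6%. Neuronal markers were above for 13 of 24, or 54.2%, led by Stmn3 at 182, 200 and 180, the intermediate filament gene Ina at 97.9, 108 and 119, and Uchl1 at 77.8, whereas Slc17a6, Stmn2, Gad1 and Dcx were inside. Epithelial markers were above for 9 of 17, or 52.9%. Krt8 read 128, 141 and 133 and Krt7 39.7, 44.5 and 49.9, with Krt18 at 23.1, whereas the E-cadherin gene Cdh1, on 1 probe set, was inside at 0.173 and Krt19 at 0.385. The intermediate filament gene Vim was inside at 0.446 on the brightest of 3 probe sets.

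Fibroblast and matrix markers were above for 4 of 18, the highest being Col6a2 at 4.66, and their summed level ran from 21.3 to 28.8 over the arrays. The count of 4 fell to 1 with the edge at the 99th percentile or with the median over probe sets, and to 2 when the reference held no olfactory receptors or when probe sets marked _x_at or _s_at were left out. Endothelial markers were above for 3 of 13, led by Egfl7 at 9.30, 10.4 and 10.4, with Tek at 0.218, Pecam1 at 0.525 and Cdh5 at 1.01 inside, and a summed level of 21.7 to 25.4. Leukocyte markers were above for 6 of 21, led by Lyz2 at 11.7 and Cd8a at 8.12, the latter on 1 of 5 probe sets, with a summed level of 46.0 to 51.0. The pan-leukocyte gene Ptprc was inside at 0.391, and so were Aif1, Itgam and Tyrobp. Markers of pituitary stem and folliculostellate cells were above for 2 of 15, Nes and Sox2, with S100b inside at 0.347 and a summed level of 15.1 to 16.4. Erythroid and muscle markers were above for 0 of 6 and 0 of 17, and germ cell markers for 1 of 21, Gdf9. With array 2 left out, 2 muscle and 2 germ cell markers were above. Liver markers were above for 2 of 12, Tat at 8.85 and Ttr at 2.29, and for 1 of 12 under those same 4 settings. Of the sex chromosome genes Xist was above at 7.74, 14.9 and 5.52 on 1 of 3 probe sets, while the Y genes Sry, Uty, Kdm5d, Zfy2 and Eif2s3y were inside.

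**Figure D3:**
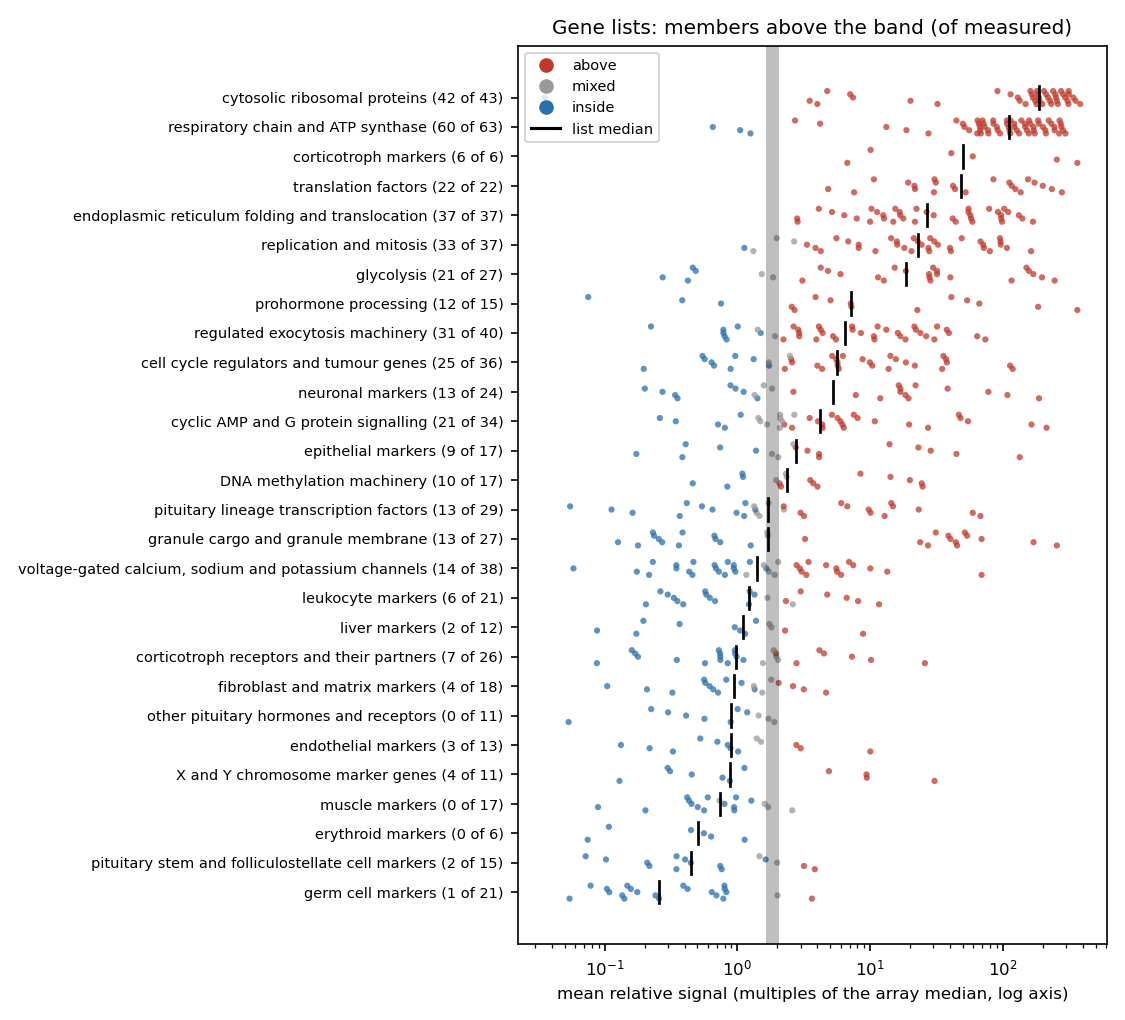
Mean relative signal of every measured member of 28 gene lists (points, in multiples of the array median on a log axis, coloured by class), with the list median as a bar and the strip marking the band edges. Ribosomal and respiratory genes lie far to the right, corticotroph markers at a median of 50.1, and germ cell markers at 0.257.

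Ribosomal protein genes were the most numerous group at the bright end. The 20 genes of highest mean level held 10 cytosolic ribosomal protein genes, from Rps29 at 383 to Rpl19 at 274. The other 10 were Pomc, the detoxification gene Gstp1 at 348, Bex1 at 337, the ferritin heavy chain gene Fth1 at 308, the cytochrome c gene Cycs, Tpt1, the respiratory chain genes Cox5a and Cox6a1, the translation factor gene Eif5a and the fatty acid binding protein gene Fabp5, the last at 283. The 100 brightest genes held 14.3% ± 2.11 of the summed signal and the 1000 brightest 51.8% ± 2.23 (SD, n = 3). Of the 100 brightest by mean, 83 were among the 100 brightest on each array. A further 26 probe sets with no symbol in the annotation reached the level of the 100th gene, and are not named here.

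Nearly all measured members of the housekeeping lists were above, beside 46.9% of all genes. Ribosomal protein genes were above for 42 of 43, with a median level of 188, but only 43 of the 77 listed were measured, Rps16 at 0.0354 on its single probe set being the 1 member inside. Taken by symbol, a set that also holds S6 kinase genes, tissue forms and a pseudogene, 47 of 56 were above and 8 inside, with a median of 163. Respiratory chain and ATP synthase genes were above for 60 of 63, and the 3 inside were Cox4i2, Cox7c and Cox8b. Cox8b is a heart and muscle form. Translation factors and genes of endoplasmic reticulum folding and translocation were above for 22 of 22 and 37 of 37, the latter led by P4hb at 169, with the chaperone Hspa5 at 80.5, 89.5 and 120. Mitochondrial ribosomal proteins were above for 76 of 76 and proteasome subunits for 47 of 49.

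Genes of dividing cells were above for 33 of 37, or 89.2%, against 46.9% of all genes. The replication clamp gene Pcna was at 163 and Mcm7 at 107, and Mki67 was mixed because it passed the edge on arrays 1 and 2, at 3.32 and 3.50, but not on array 3. Of 36 cell cycle regulators and tumour genes 25 were above, or 69.4%. Pttg1, the securin first described in pituitary tumours, read 114, 122 and 120, and the cyclin-dependent kinase inhibitor gene Cdkn1a read 107, 113 and 120. Cdkn2d and Cdkn2c, also inhibitors, were at 37.3 and 34.9, whereas Cdkn2a and the retinoblastoma gene Rb1 were inside, at 0.964 and at 0.197. The DNA methylation machinery was above for 10 of 17, or 58.8% against 46.9% of all genes, and for 5 with the median over probe sets. Dnmt1, the target of the knockdown in the same study, read 21.3, 27.7 and 24.4 in these control cells, with all 3 probe sets above, and its partner Uhrf1 had a mean of 24.9. Dnmt3a was at 3.72 on 1 of 5 probe sets, Dnmt3b was mixed, and Tet1, Tet2 and Tet3 were inside.

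In the gene families named in this paragraph, 0% to 34.2% of members were above, beside 46.9% of all genes. No rule fixed which families were named, and others stood higher. Synaptotagmins were above for 9 of 16, Klf genes for 12 of 16 and solute carriers for 147 of 321. Hox genes were above for 6 of 36, collagens for 6 of 42, cytochrome P450 genes for 8 of 72, keratins for 9 of 48, potassium channels for 18 of 84 and defensins for 0 of 23, or 1 with array 3 left out. The brightest member of each family was named after its values were seen. Among forkhead genes, 13 of 38 above, Foxa1 led at 32.8, 47.8 and 42.2, followed by Foxk2 at 22.8 and Foxa2 at 19.6, and Foxa1 and Foxa2 are known as factors of endodermal organs. Chemokines and receptors were above for 8 of 46, led by Cxcl12 at 34.9 and by Ccl2, a chemokine that recruits monocytes, at 20.3, 33.1 and 36.6. That count of 8 ranged from 4 with the edge at the 99th percentile to 15 at the 90th and 16 when 2 of 3 arrays sufficed. Cytochrome P450 genes rose to 13 with the edge at the 90th percentile and collagens fell to 3 at the 99th. Long noncoding RNA genes were above for 9.60% of 1458 and protein-coding genes for 50.8% of 16394.

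The spread between the independent rounds was small for most genes above the band. The median SD of log2 level was 0.222, 427 of 8502 genes, or 5.02%, were over 0.5, and 9 were over 1. Genes inside the band had a median SD of 0.653. Anapc5, a subunit of the anaphase-promoting complex, read 92.6, 92.6 and 93.0, the smallest spread among genes above the band, and the alanyl-tRNA synthetase gene Aars read 63.3, 64.0 and 63.9. The median SD depended on the scaling. It was 0.186 with scaling to a 2% trimmed mean, 0.181 with quantile normalization and 0.530 without scaling of the arrays.

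Several of the 10 genes of widest spread had array 3 highest. Egr1, an immediate early factor, read 3.91, 30.4 and 15.4. Bnip3, a mitophagy gene known to be induced by low oxygen, read 18.4, 40.0 and 137. Ndrg1, likewise known to be induced by low oxygen, read 6.89, 9.27 and 35.3, and all 5 of its probe sets had array 3 highest. Selenbp1, Slc16a3, a lactate exporter, Pdk1, which restrains pyruvate oxidation, and Pfkl, a glycolytic kinase, also had array 3 highest and array 1 lowest. Idi1, an enzyme of sterol synthesis, ran the other way at 13.9, 6.03 and 2.64. Prrc2c and Ranbp9 were the remaining 2 of the 10.

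Lists of low-oxygen, sterol and immediate early genes were written after these values had been seen, and are given as description. Of 24 low-oxygen genes above the band, 20 were highest on array 3, against 30.9% of all 8502 genes above it, and their median log2 difference of array 3 from array 1 was 0.91 against 0.14 for all. These counts include Bnip3, Ndrg1, Slc16a3, Pdk1 and Pfkl, which prompted the list. Without the 10 genes of widest spread 15 of 19 were highest on array 3, with a median difference of 0.76. Pgk1 read 155, 147 and 289, Ldha 205, 187 and 344, Hk2 19.9, 30.5 and 45.4, and P4ha1 2.79, 4.81 and 10.6. The exceptions among the 24 were Adm, Ankrd37, Vldlr and Pfkfb4, which were highest on array 2. Of the 32 genes listed 30 were measured, and those not above the band were left out of these counts. Among them Car9 was mixed at 1.82, 1.49 and 1.64, Pfkfb3 at 1.54, 1.84 and 1.28, and Plod2 at 1.69, 2.03 and 1.82. None of these mixed genes was highest on array 3. Car12, Egln3 and P4ha2 were inside. The separately listed glycolysis genes share many of these members, and 18 of 21 above the band were highest on array 3.

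Sterol genes had the opposite order of arrays 1 and 3. All 19 above the band were lowest on array 3, against 26.5% of all genes above it, and 14 were highest on array 1, against 12.1%. Hmgcs1, at the entry to the pathway, read 48.3, 19.6 and 17.2, Msmo1 64.5, 28.9 and 22.5, Fdps 148, 90.1 and 71.6, and Insig1, which senses sterols, 34.0, 27.0 and 15.1. The smallest differences between arrays 1 and 3 were those of Stard4 at 6.84, 7.27 and 6.37, and Ebp at 17.0, 20.8 and 16.3. The median log2 difference of array 3 from array 1 was -1.05. Without Idi1, which prompted the list, 18 of 18 were lowest on array 3 and the median difference was -1.03.

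Immediate early genes were lowest on array 1 for 15 of 19, against 58.0% of all genes above the band, so this count stands closer to the background than the others. Without Egr1, which prompted the list, it was 14 of 18. Fos read 7.99, 18.6 and 14.6, Ier3 7.33, 15.0 and 20.5, and Klf4 7.70, 17.2 and 12.9. The exceptions among the 19 were Egr3, Atf3 and Myc, which were lowest on array 2, and Fosl2, which was lowest on array 3. The patterns of array 3 kept their direction under other scalings. When arrays were scaled to a 2% trimmed mean, 21 of 24 low-oxygen genes were highest there, against 33.5% of all genes above the band. In that scaling 18 of 19 sterol genes were lowest on array 3, against 32.2%. Quantile normalization gave the same counts, against 33.6% of all genes highest and 33.6% lowest on array 3. Without any scaling 15 low-oxygen genes were highest there, against 5.67% of all genes, and 17 sterol genes were lowest, against 9.34%. The immediate early genes lowest on array 1 were 11 by trimmed mean, against 32.1% of all genes, and 10 by quantile normalization, against 31.3%. Those lowest on array 2 were 7 by trimmed mean, against 35.7% of all genes, and 8 by quantile normalization, against 35.1%. Beside the median SD of 0.222 for all genes above the band, Pomc, Cpe, Tbx19 and Pitx1 had SDs of log2 level of 0.333, 0.0868, 0.121 and 0.0564, and Pcsk1, highest on array 3, had 0.452. What differed between the rounds of culture was not tested, and the labels give no condition that separates them.

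**Figure D4:**
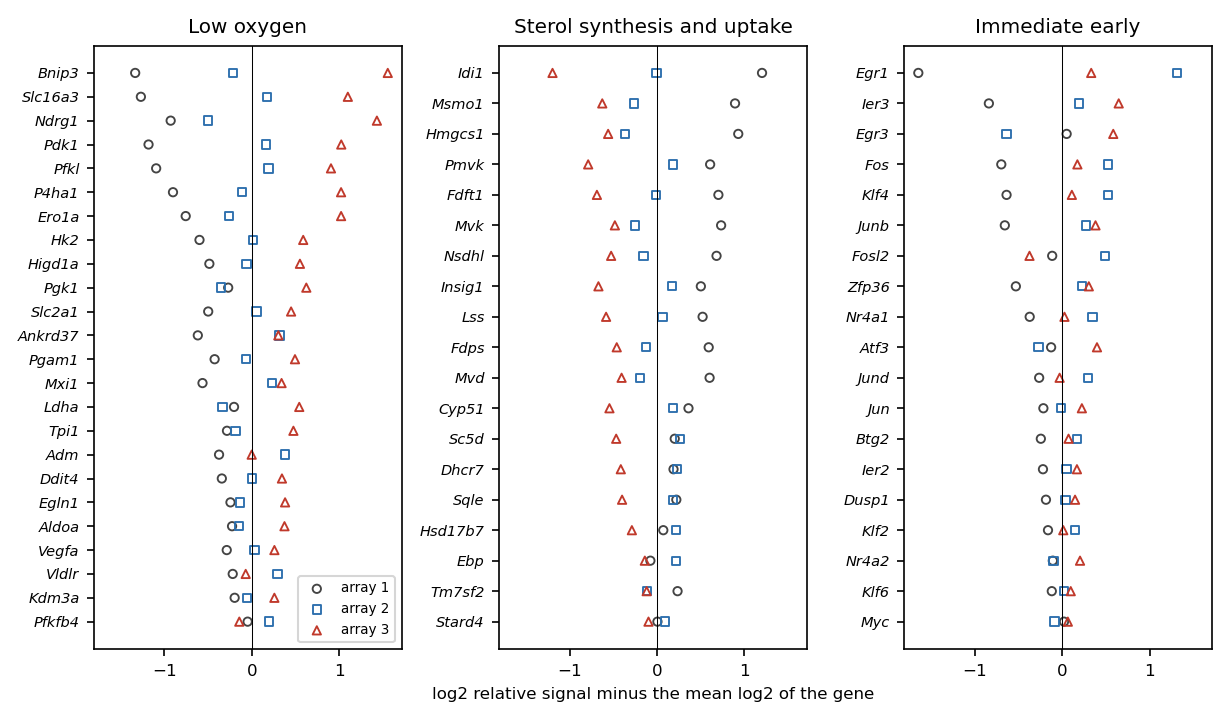
Log2 relative signal on each control array minus the mean log2 of the gene (horizontal axis), 1 line of points per gene above the band, for 24 low-oxygen, 19 sterol and 19 immediate early genes, sorted by range. Array 3 lies to the right for 20 of 24 low-oxygen genes and to the left for 19 of 19 sterol genes.

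CpG-rich promoters made up a larger share of genes above the band than of genes inside it. A promoter was called CpG-rich when over 50% of its 300 bases, from 250 before to 50 after the start, were G or C and its ratio of observed to expected CpG was above 0.6. Of the 18115 genes, 11729 had exactly 1 promoter in the RefSeq table. The share was 76.3% of 5492 genes above, 53.2% of 1324 mixed genes and 30.5% of 4913 genes inside. With the genes cut into 5 equal groups by mean level, the 2 dimmest groups, which lie below every band edge and have no order, were taken as 1 and held 29.7%, and the other 3 held 56.4%, 75.6% and 81.1% from dim to bright. The share was 54.5% of all 11729 genes and 33.3% of all RefSeq promoters of the same length. The letters TATAAA, on either strand, were in 6.28% of promoters of genes above and 14.7% of those inside, against 10.1% of all 11729 genes and 13.6% of all promoters. Among the 100 brightest genes, 76 of which had 1 promoter, TATAAA was in 15.8%. The letters TGACGTCA, the same on both strands, were in 3.53% and 1.83%, against 2.71% of the 11729 genes and 1.79% of all promoters. These are descriptions across genes, which are not independent of each other.

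The corticotroph genes fell on both sides of this division. Pomc, with 18 CpG and a GC share of 59.0%, and Chga and Neurod1 had CpG-rich promoters. Tbx19, with a ratio of 0.426, and Pcsk1, with a GC share of 49.3%, did not, although both genes were above the band. Pomc also holds TATAAA. None of the hormone genes Prl, Tshb, Cga, Fshb and Lhb had a CpG-rich promoter, with 1 to 4 CpG in 300 bases, and each held TATAAA within 31 bases before its start. No Pitx1 or Gh promoter was matched.

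**Figure D5:**
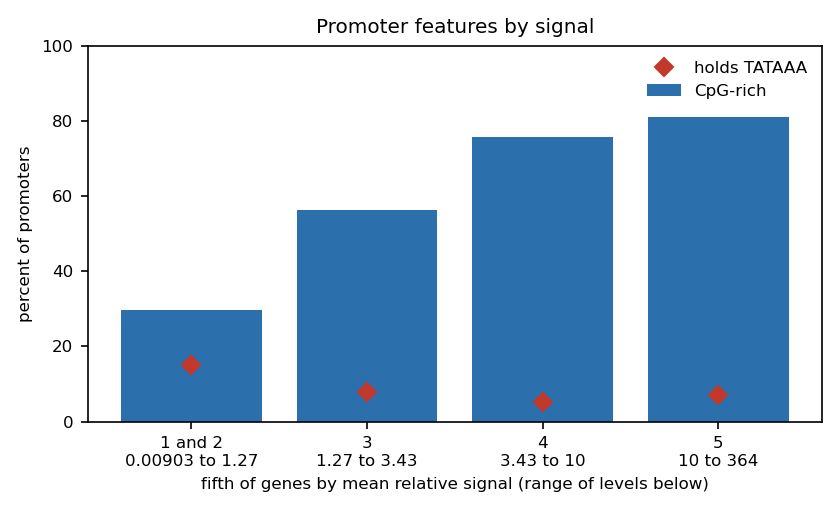
Percent of RefSeq promoters that are CpG-rich (bars) or hold TATAAA (diamonds), by 5 equal groups of genes in order of mean relative signal (horizontal axis), the 2 dimmest drawn as 1, for the 11729 genes with 1 promoter. The CpG-rich share runs from 29.7% in the dimmest bar to 81.1% in the brightest, while TATAAA is at 15.0%, 8.02%, 5.33% and 7.12%.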

How the data were processed

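Per the labels, AtT-20 cells were given 20 nM non-targeting siRNA for 8 days in 3 independent rounds and total RNA was taken by guanidinium thiocyanate. The authors deposited 1 linear intensity per probe set and array, made with GCOS per the submitters' processing notes. The version of GCOS is not given in the sources used here. Detection calls were not used, so background was judged from receptor genes on the same arrays. Each array was divided by the median of its 45037 non-control probe sets. Symbols came from the platform annotation, and a gene table of GRCm38.p6 changed 0 of them. The 34945 probe sets with 1 symbol were used, and 932 with several and 9160 with none were left out. A gene took its brightest probe set on mean level.

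No group was compared, so there is no test. Levels are means ± SD over 3 arrays, and the number of arrays limits their precision. The named genes were the 6 markers, the 20 brightest, up to 4 members at each end of every list, the 10 genes of largest and of smallest spread, Dnmt1, and the lists of receptors, other hormones, processing and lineage factors in full. Not all of these genes are printed above. Further list members were picked once their values were known. The members, the 28 lists and the 23 families were chosen with earlier results of these data known, and 672 of 756 listed genes were measured. Alternatives were the 90th and 99th percentile as edge, other receptor sets, the median over probe sets, other scalings, a pseudocount of 0.25 and each array left out. Dividing an array by a constant cannot change the class of a probe set, because each edge lies on its own array. The choice of a gene's brightest probe set can depend on scaling, and class counts were not recomputed under other scalings. Python 3.11.15, numpy 2.4.6 and pandas 2.3.3 were used.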

Additional observations from a re-analysis of the deposited data

How the results depend on the processing

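Counts of genes above the band ranged from 6993, with the median over the probe sets of a gene, to 9524, when 2 of 3 arrays sufficed, and counts inside from 6360, with the 90th percentile as edge, to 9353, with the 99th. With each array left out in turn they were 8661 to 9171 above and 7693 to 8022 inside. The median SD of log2 among genes above was 0.160 to 0.206 with an array left out. An SD over 2 arrays tends to be lower than one over 3, so these values cannot be set against the 0.222 of all 3. Over all 3 arrays the median SD was 0.186 with scaling to a 2% trimmed mean and 0.181 with quantile normalization. Without scaling, which keeps the unequal array medians, the median SD was 0.530. With the median over probe sets, which brings in dimmer ones, Tbx19 was at 52.6 and Pitx1 at 4.38. Pomc and Neurod1 stayed within 1 SD there, at 337 and 8.94, while Chga and Pcsk1 have 1 probe set each and could not move. Of 263 named genes, 104 moved by at least 1 SD in that setting, and those of the 263 with 1 probe set could not move. The CpG-rich share was 69.9% of 8936 promoters of genes above the band when genes with several promoters were included, a setting chosen after seeing the data, and 30.5% to 31.8% of genes inside with an array left out. The cause of these shifts was not tested. Of 510 recomputed list and family counts 41 moved by more than 1.5 times, 26 of them from counts of 4 or less. With the 90th percentile as edge 11 receptors were above instead of 7, and with the median over probe sets 6 ion channels instead of 14 and 5 methylation genes instead of 10. No paired analysis was possible because only 1 group is described. Signals inside the band have no order.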
